A study of Mus musculus with 2 samples.

Results

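Rax, Pax6, Lhx2, Meis1, Meis2, Nr2e1 and Pax2 encode transcription factors that act in the eye field, the optic vesicle and the retinal progenitors. They were taken by gene symbol, 7 of the 31053 features counted, and each symbol stood on 1 row. Their transcripts were followed by single-cell RNA-seq in dissociated eyecups of mouse embryos at E13.5, across the cell types of the retina and between 2 genotypes. The control library came from an embryo labelled Six3+/-;Six6+/-, which carried no Cre-GFP and held 1 null allele of each gene. The DKO library came from an embryo labelled Six3F/F;Six6-/-;a-Cre, which had lost Six6 in the germline and carried floxed Six3 alleles. α-Cre is driven by an enhancer of Pax6 and acts in the peripheral but not the central retina, so that the DKO retina mixed cells with and without Six3. The DKO embryo was picked by GFP+ rosettes in its retina. Neither library therefore stood for a wild-type retina.

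The eye field is the patch of anterior neural plate from which both eyes arise, and it is marked by a small set of homeobox genes. Rax and Pax6 are among the first of them, Lhx2 carries the optic vesicle on to the optic cup, and the TALE homeodomain factors Meis1 and Meis2 act with PBX partners upstream of Pax6 in lens and retina. Nr2e1 (Tlx) is an orphan nuclear receptor that holds neural progenitors in cycle, and Pax2 marks the ventral optic cup, the optic stalk and the optic disc. Six3 and Six6, the genes deleted here, belong to the same set.

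The control library held 10315 cell barcodes and 85589515 UMIs, and the DKO library 12672 barcodes and 85173276 UMIs. After filtering, 9822 control cells with a median of 7620 UMIs and 12146 DKO cells with a median of 5879 UMIs were kept, and the libraries shared 20 cell barcodes among them. Levels are given as CPM, the UMIs of a gene summed over the cells of a class and divided by all UMIs of those cells and multiplied by 1000000, with an exact 95% Poisson interval. Ratios are log2 of DKO over control, with a 95% interval that treats a gene's UMIs as split between the libraries by an exact binomial. Both intervals cover counting error only. With 1 library per genotype there was no replicate and no test, and a difference between the libraries cannot be told apart from a difference between the 2 embryos. Classes were named from fixed marker genes, and the 7 genes took no part in the clustering or the naming. The classes were naive-like progenitors (3318 control and 3341 DKO cells), neurogenic-like progenitors (1415 and 1749), ganglion-like cells (977 and 2144), amacrine and horizontal-like cells (125 and 193), photoreceptor-like cells (86 and 112) and ectopic neuron-like cells, which held 0 control and 672 DKO cells. Cluster 3 (1003 and 1191 cells) stayed unnamed because its ciliary margin and pigment epithelium markers scored alike.

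The deleted genes were read first. In naive-like cells Six6 stood at 368 CPM in the control and 45.4 in the DKO library (log2 ratio -3.02), so that some 3′ counts of the deleted gene remained, and Six3 stood at 310 and 231 CPM (log2 ratio -0.42). In ganglion-like cells Six3 stood at 739 CPM in the control and 723 in the DKO library (log2 ratio -0.03, interval -0.08 to 0.01).

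In the GENCODE vM21 annotation of mm10, all 7 are protein-coding genes. Pax6 lies at chr2:105668900-105697364 on the plus strand, Lhx2 at chr2:38339281-38369733 on the plus strand and Meis2 at chr2:115863064-116065839 on the minus strand. Meis1 lies at chr11:18879817-19018985 on the minus strand, Nr2e1 at chr10:42561963-42583632 on the minus strand and Pax2 at chr19:44756045-44837871 on the plus strand. The files held 36501 control and 37889 DKO UMIs of Pax6, 21430 and 19718 of Rax, 12900 and 17392 of Lhx2, 10583 and 10700 of Meis1, 4106 and 3770 of Nr2e1, 2723 and 5138 of Meis2 and 524 and 275 of Pax2. Counts at the 3′ end do not rank genes against each other, so each gene is followed across cell types.

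Each gene had its own map across the control retina. Rax, the gene needed for an eye to form at all, was highest among the named classes in naive-like progenitors at 423 CPM (interval 416 to 430). Unnamed cluster 4, of low UMI counts, held 443 CPM (409 to 480), and these intervals overlapped. Lower levels followed in cluster 3 (339), photoreceptor-like cells (291), neurogenic-like progenitors (206), amacrine and horizontal-like cells (109) and ganglion-like cells (46.5). Cluster 3 and photoreceptor-like cells overlapped in their intervals. The photoreceptor-like cells thus held more Rax than the neurogenic-like progenitors, 243 to 345 against 198 to 215 CPM.

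Pax6, which keeps progenitors multipotent and persists in inner retinal neurons, had another order. Amacrine and horizontal-like cells held 1089 CPM (interval 1014 to 1167), ganglion-like cells 656, naive-like progenitors 521 and neurogenic-like progenitors 504. The intervals of both progenitor classes overlapped. Photoreceptor-like cells were the lowest named retinal class of the control library at 342 CPM, and lens-like cells held 268.

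Lhx2 was led by naive-like progenitors at 250 CPM, with 216 in cluster 3 and 142 in both neurogenic-like progenitors and amacrine and horizontal-like cells. Control ganglion-like cells held 18.7 CPM, above the 4.02 that red blood-like cells held. Red blood cells do not make these factors, so their UMIs give one level of free RNA. Hemoglobin made up 85.7% of control and 86.3% of DKO red blood-like UMIs, against 1.26% and 0.667% in ganglion-like cells. This lowers the CPM and thinned shares of all other genes in red blood-like cells, so their values do not set a background level. Meis1, a partner of PBX and HOX proteins, lay between 127 CPM in ganglion-like cells and 230 in amacrine and horizontal-like cells among the named retinal classes. Unnamed clusters 4 and 15, of low UMI counts, held 63.7 and 88 CPM.

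Meis2 was highest by far in photoreceptor-like cells. Its level there was 875 CPM (interval 790 to 966) in the control and 1054 (interval 958 to 1157) in the DKO library. The next named control class, lens-like cells, held 75.1 CPM, with an interval that overlapped that of amacrine and horizontal-like cells (73.1), and naive-like progenitors held 27.3. After each cell had been thinned to 2000 UMIs, 81.4% of 86 control photoreceptor-like cells and 84.9% of 106 DKO photoreceptor-like cells held a Meis2 UMI, against 0.0943% of control and 0.556% of DKO red blood-like cells.

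Nr2e1 was mainly a transcript of progenitors in the control library. Naive-like progenitors held 98.4 CPM, cluster 3 held 41.1, neurogenic-like progenitors 17.6, amacrine and horizontal-like cells 12.4 (on 9 UMIs) and ganglion-like cells 1.57, where the interval overlapped that of red blood-like cells (0.781). Pax2 was sparse everywhere. Leaving aside the finer ciliary margin-like and pigment epithelium-like classes given below, its highest level in a retinal class or cluster of the control library was 21.1 CPM in cluster 3. Naive-like progenitors followed at 8.34. In amacrine and horizontal-like and in photoreceptor-like cells of the control library the count was 0, which with their small totals allows up to 5.09 and 8.25 CPM.

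**Figure D1:**
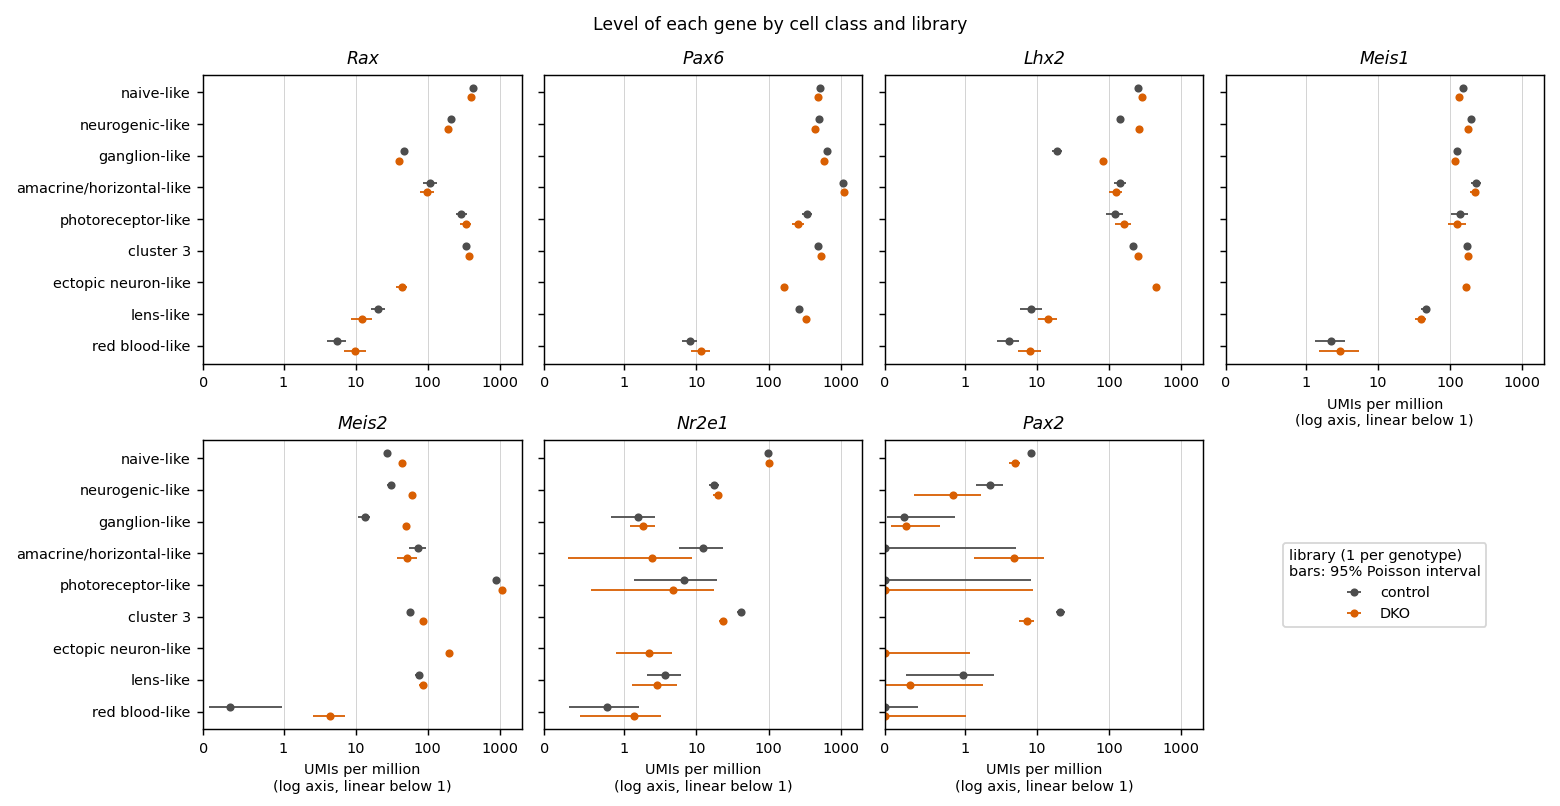
Level of each of the 7 genes in CPM (log axis, linear below 1) by cell class, control in grey and DKO in orange, with 95% Poisson intervals. Lhx2 and Meis2 separate the libraries in ganglion-like and neurogenic-like cells, Meis2 peaks in photoreceptor-like cells, and red blood-like cells hold the least of most genes.

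Between the libraries, Lhx2 and Meis2 were higher in DKO progenitors and ganglion-like cells. In ganglion-like cells Lhx2 was 18.7 CPM in the control and 80.9 in the DKO library, 4.32-fold higher (log2 ratio 2.11, interval 1.87 to 2.36). Meis2 was 13.3 and 49.3 CPM, 3.72-fold higher (log2 ratio 1.89, interval 1.60 to 2.20). In neurogenic-like progenitors Lhx2 was 142 and 261 CPM (log2 ratio 0.87) and Meis2 30.7 and 60.9 CPM (log2 ratio 0.99). In naive-like progenitors the gap was smaller, 250 against 287 for Lhx2 (log2 ratio 0.20, interval 0.16 to 0.24) and 27.3 against 43.4 for Meis2 (log2 ratio 0.67, interval 0.54 to 0.79).

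The promoters of both genes are printed because these were the members that stood higher together in the DKO library. They come from the RefSeq promoter table (build GRCm38.p6), which held 6 of the 7 genes, and run from 250 bases before to 50 after the start. Capitals mark TAAT, the core bound by many homeodomain proteins, LIM factors included, searched on both strands. TGACAG, the core bound by MEIS proteins, was searched likewise and has 0 matches in either window. The Lhx2 window lies at chr2:38339031-38339330 on the plus strand and the Meis2 window at chr2:116064570-116064869 on the minus strand. The table holds a second Lhx2 window at chr2:38351058-38351357, which is not printed.
Lhx2: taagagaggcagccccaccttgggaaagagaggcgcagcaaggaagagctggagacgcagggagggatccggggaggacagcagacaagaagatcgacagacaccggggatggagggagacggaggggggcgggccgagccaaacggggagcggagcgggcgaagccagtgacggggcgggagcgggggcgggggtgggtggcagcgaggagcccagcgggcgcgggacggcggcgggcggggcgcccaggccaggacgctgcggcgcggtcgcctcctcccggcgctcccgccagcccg
Meis2: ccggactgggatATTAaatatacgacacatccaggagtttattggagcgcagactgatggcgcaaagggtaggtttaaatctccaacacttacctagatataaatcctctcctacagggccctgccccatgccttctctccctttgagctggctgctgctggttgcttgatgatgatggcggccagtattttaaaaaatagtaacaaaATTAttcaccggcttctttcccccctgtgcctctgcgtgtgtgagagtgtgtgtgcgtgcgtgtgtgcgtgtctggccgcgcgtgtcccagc
The printed Lhx2 window is 74.7% G and C and holds 0 TAAT cores, the second Lhx2 window is 69.3% G and C and also holds 0, and the Meis2 window is 51% G and C and holds 2, both as ATTA on the printed strand. Of all 32851 promoters in the table, 58% hold a TAAT core and 19.2% a TGACAG core. A match is a run of letters and not a known site.

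Lhx2 was higher in the DKO library in 9 of the 12 retinal clusters that held 50 or more cells from both libraries, counting only intervals above 0, and lower in 0. Meis2 was higher in 8 of the 12 and lower in 0. Within the ganglion-like class the clusters differed. In cluster 5, the larger one, Lhx2 stood at 17.6 and 122 CPM (log2 ratio 2.79), whereas in cluster 6, whose ganglion cell markers scored higher, it stood at 20.2 and 44.4 (log2 ratio 1.14). Meis2 showed the same order of clusters, with log2 ratios of 2.30 in cluster 5 and 1.34 in cluster 6.

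A larger share of DKO cells also held the transcripts. At 2000 UMIs per cell, a Lhx2 UMI was found in 4.34% of 967 control and 14.5% of 2097 DKO ganglion-like cells, with 10 and 47 shallower cells left out. A Meis2 UMI was found in 2.17% and 8.01% of them. Without thinning the Lhx2 shares were 13.1% and 32.2% at median depths of 8445 and 6760.5 UMIs. In red blood-like cells, at medians of 8453 and 6337 UMIs, Lhx2 was found in 0.943% of control and 1.11% of DKO cells after thinning. Meis2 was found in 0.0943% and 0.556% of them, and both genes were found more often in ganglion-like cells of the same library. Most UMIs of a thinned red blood-like cell are hemoglobin, which lowers these shares, so the comparison does not set a background level. Macrophage-like cells, another type not known for Lhx2, held more of it than red blood-like cells, 56.4 CPM in the control (interval 32.8 to 90.3) and 71.6 in the DKO library (53.3 to 94.1), above the 18.7 of control ganglion-like cells. At 2000 UMIs a Lhx2 UMI was found in 9.68% of 31 control macrophage-like cells (exact interval 2.04 to 25.8%) and in 9.68% of 93 in the DKO library (4.52 to 17.6%), with 24 and 68 shallower cells left out. The control ganglion-like share of 4.34% and the DKO share of 14.5% each lay inside the macrophage-like interval of their library. These intervals are wide, as they rest on 31 and 93 cells, so they cannot set a background level. Whether the control ganglion-like share exceeds free RNA was not tested. Meis2 was found in 0 of the 31 and in 1.08% of the 93 macrophage-like cells.

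Markers of other cell types moved with this result. The summed level of the 8 ectopic neuron markers in ganglion-like cells was 104 CPM in the control and 490 in the DKO library, with 1 and 0 of the markers at 0. The 8 ciliary margin markers summed to 81.3 and 115 and the 9 pigment epithelium markers to 1.09 and 15.1 CPM. Sox9, a progenitor factor, stood at 4.59 and 23.1 CPM. The part of these cells in the Lhx2 and Meis2 values was not tested. In neurogenic-like progenitors the ectopic neuron markers summed to 27.9 and 365 CPM and the ciliary margin markers to 104 and 203. In naive-like progenitors they summed to 13.7 and 160 CPM and to 353 and 669 CPM. The part of these markers' cells in the progenitor values was not tested either. Doublets made up 1.02% of the control and 0.75% of the DKO ganglion-like cells.

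Pooled over each progenitor or ganglion-like class, Pax6, Rax and Meis1 were slightly lower in the DKO library. Pax6 was lower in naive-like (521 against 492 CPM, log2 ratio -0.08), neurogenic-like (504 against 438, -0.20) and ganglion-like cells (656 against 587, -0.16). Rax was 423 and 398 CPM in naive-like progenitors (log2 ratio -0.09), 206 and 193 in neurogenic-like progenitors (-0.10) and 46.5 and 40.4 in ganglion-like cells (-0.20). The neurogenic-like clusters differed, with Rax ratios of -0.19 in cluster 2 (interval -0.32 to -0.07) and 0.18 in cluster 9 (0.05 to 0.32). By predicted phase, the neurogenic-like Rax intervals held 0 in G1 and S, and the ratio was 0.24 in G2/M (0.08 to 0.40). Meis1 was lower by 0.12 to 0.16 on the log2 scale in the same classes. The gaps of the pooled classes exceeded counting error but were at most 1.15-fold, and no replicate shows how far 2 embryos of 1 genotype differ. Nr2e1 in naive-like progenitors was 98.4 and 103 CPM, with an interval of -0.01 to 0.14 for the log2 ratio.

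Counted at a fold of 1.5, 2 of the 7 genes in naive-like progenitors lay outside it, Meis2 higher and Pax2 lower. In neurogenic-like progenitors 3 lay outside it, Lhx2 and Meis2 higher and Pax2 lower, and in ganglion-like cells 2 did, Lhx2 and Meis2 higher. Pax2 in neurogenic-like progenitors rested on 23 control and 8 DKO UMIs, and 2 control cells held 69.6% of the 23. Over all genes that reached 100 UMIs and 50 CPM in one or both libraries, 2.29% were higher and 1.52% lower in naive-like progenitors. The shares were 4.22% and 3.11% in neurogenic-like progenitors and 3.06% and 1.88% in ganglion-like cells. Of the 7 genes, 5 passed that filter in naive-like progenitors and 0 of them lay beyond 1.5-fold, since Meis2 and Pax2 were under it. In neurogenic-like progenitors 2 of 5 did, Lhx2 and Meis2, with Nr2e1 and Pax2 under the filter. In ganglion-like cells 1 of 3 did, Lhx2, with Rax, Meis2, Nr2e1 and Pax2 under it. Meis2 in neurogenic-like progenitors (30.7 and 60.9 CPM) and Lhx2 in ganglion-like cells (18.7 and 80.9) reached 50 CPM only in the DKO library. Both entered these counts through the library in which they stood higher, so the counts add no support to their ratios. The median log2 ratio of the 7 genes was -0.08 in naive-like, -0.10 in neurogenic-like and 0.15 in ganglion-like cells, and the last of these was the ratio of Pax2, with 2 and 4 UMIs. The median over all genes passing the filter was 0.04, 0.01 and 0.02.

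**Figure D2:**
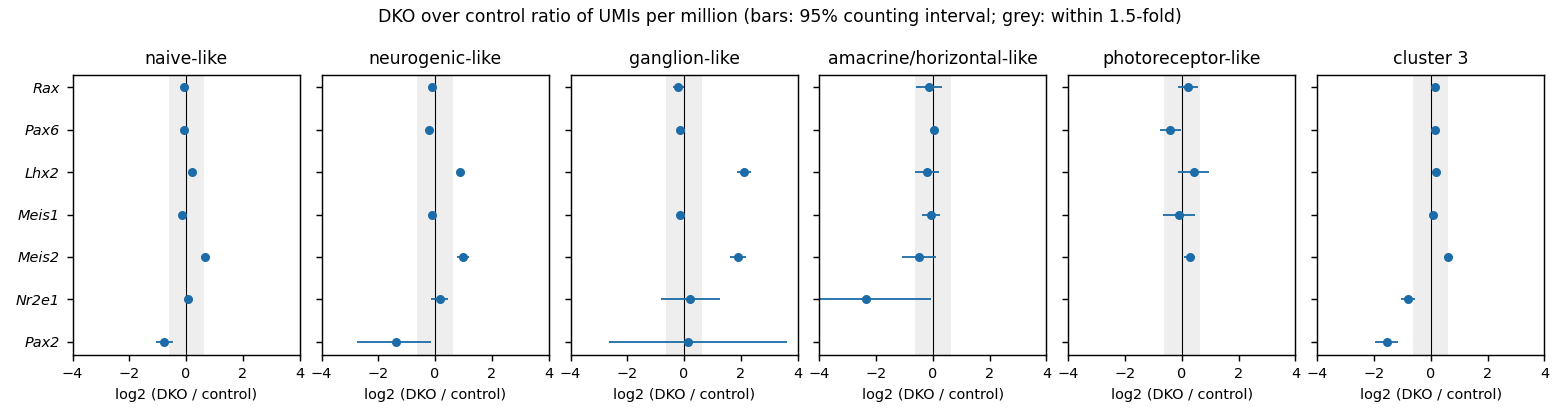
Log2 ratio of DKO over control for each gene in 6 cell groups, with 95% counting intervals that are cut at the axis edge and the range within 1.5-fold in grey. Lhx2 and Meis2 lie to the right of the grey band in neurogenic-like and ganglion-like cells, and Pax2 to the left of it in naive-like and neurogenic-like cells and cluster 3. Pax2 in neurogenic-like cells rests on 23 control and 8 DKO UMIs.

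The rarer neurons rested on fewer UMIs. In amacrine and horizontal-like cells Pax6 was 1089 and 1123 CPM (log2 ratio 0.05, interval -0.09 to 0.18), and Lhx2 was 142 and 123 (log2 ratio -0.21, interval -0.62 to 0.20). Nr2e1 rested on 9 and 2 UMIs there. In photoreceptor-like cells Meis2 was 1.20-fold higher (log2 ratio 0.27, interval 0.07 to 0.47) and Pax6 was 342 and 258 CPM (log2 ratio -0.41, interval -0.78 to -0.04). Over all genes, 3.48% were at least 1.5-fold higher and 3.68% lower in amacrine and horizontal-like cells, and 1.22% and 1.76% in photoreceptor-like cells. These classes were small, and the Lhx2 interval in photoreceptor-like cells, -0.13 to 0.96, covers both no difference and a gap of more than 1.5-fold.

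Cluster 3, with markers of the pigment epithelium (Pmel, Trpm1, Dct) and of the ciliary margin (Gja1, Wls), had another pattern. Pax2 was 21.1 CPM in the control and 7.18 in the DKO library (log2 ratio -1.55, interval -1.97 to -1.15), and Nr2e1 was 41.1 and 23.6 (log2 ratio -0.80, interval -1.05 to -0.56). Meis2 was 56 and 85.6 CPM (log2 ratio 0.61). Rax and Pax6 were both higher there, 339 against 378 (log2 ratio 0.16) and 481 against 536 CPM (log2 ratio 0.16). Over all genes in this cluster 5.27% were at least 1.5-fold higher and 2.01% lower. A finer clustering of all cells named a ciliary margin-like class (1043 control and 1138 DKO cells) and a pigment epithelium-like class (494 and 522), which together held more cells than cluster 3 and are not a split of it. Nr2e1 there stood at 51.4 and 34.4 CPM in ciliary margin-like cells and at 39.5 and 21 in pigment epithelium-like cells, and Pax2 at 15 and 6.72 and at 19.8 and 9.71. Rax was higher in the DKO ciliary margin-like cells (log2 ratio 0.25, interval 0.19 to 0.31), and its interval in pigment epithelium-like cells held 0 (-0.13 to 0.11). Within cluster 3, the summed ciliary margin markers were 990 and 2313 CPM in the control and DKO library, and the pigment epithelium markers 557 and 1426. The optic stalk and disc markers summed to 69.5 and 40.8 CPM and the ectopic neuron markers to 32.6 and 371. Few cells carried Pax2 in this cluster, as 25 control and 8 DKO cells with 3 or more UMIs held 80.5% and 54.9% of its Pax2 UMIs. The part of these marker shifts in the values was not tested.

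The ectopic neuron-like cells of the DKO library, which carry Tbr1, Eomes and Rspo3, had a profile of their own. Lhx2 reached 442 CPM (interval 419 to 466), above the 287 (281 to 293) of DKO naive-like progenitors and the highest level of any class in either library. Meis2 reached 196 (181 to 212), second to photoreceptor-like cells. Meis1 stood at 169 CPM, within the range of the other classes, while Pax6, at 164, was the lowest of the DKO retinal classes. Rax was 43.7 CPM, with an interval that overlapped that of DKO ganglion-like cells (40.4). Nr2e1 was 2.23 CPM and Pax2 had 0 UMIs, which allows up to 1.18 CPM. At 2000 UMIs per cell, Lhx2 was found in 55.7% of 661 such cells (79.8% without thinning), Pax6 in 20.1% and Rax in 7.11%.

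Coexpression in single cells was read at 2000 UMIs. In naive-like progenitors, 14.9% of 3284 control cells and 14.1% of 3294 DKO cells held UMIs of all 3 of Rax, Pax6 and Lhx2. The share was 4.76% and 6.28% in neurogenic-like progenitors and 0.908% in ectopic neuron-like cells. In DKO ganglion-like cells, 23.5% of the 170 cells with a Rax UMI also held Lhx2 (interval 17.4 to 30.6), against 13.8% of those without (12.2 to 15.4). In the control ganglion-like cells the same shares were 4.49% and 4.33%. In ectopic neuron-like cells, Pax6 was found in 12.2% of the 147 cells with a Meis2 UMI (interval 7.42 to 18.7), against 22.4% of those without (18.8 to 26.2).

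Progenitors were then split by predicted cell cycle phase. Lhx2 in control neurogenic-like progenitors was 83.8 CPM in G1, 187 in S and 180 in G2/M. In DKO neurogenic-like progenitors it was 245, 280 and 282. The log2 ratio was therefore 1.55 in G1 (interval 1.37 to 1.72), 0.58 in S (0.38 to 0.78) and 0.65 in G2/M (0.49 to 0.81). In naive-like progenitors the order of the ratios was the same, with 0.56 in G1, 0.09 in S and 0.21 in G2/M. The intervals of G1 and of the other phases did not overlap in either class.

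Meis2 also had its highest ratio in G1. In naive-like progenitors it was 17.9 CPM in control and 53.3 in DKO G1 cells (log2 ratio 1.57, interval 1.09 to 2.07), against 0.59 in S and 0.54 in G2/M. In neurogenic-like progenitors the ratio was 1.12 in G1 (0.85 to 1.39), and the intervals in S (-1.08 to 0.45) and G2/M (-0.04 to 0.79) held 0. Rax was lower in DKO naive-like G1 cells (496 against 408 CPM, log2 ratio -0.28) and 391 against 384 CPM in G2/M. Nr2e1 in neurogenic-like progenitors was 4.78 CPM in control and 10.1 in DKO G1 cells (log2 ratio 1.07, interval 0.31 to 1.89). Six3 itself was 292 and 149 CPM in control and DKO naive-like G1 cells, and 308 and 253 in S. The part of this lower Six3 level in the naive-like G1 ratios was not tested. G1 cells made up 47.8% of control and 67.7% of DKO neurogenic-like cells with a phase, and the part of this shift in the pooled values was not tested.

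**Figure D3:**
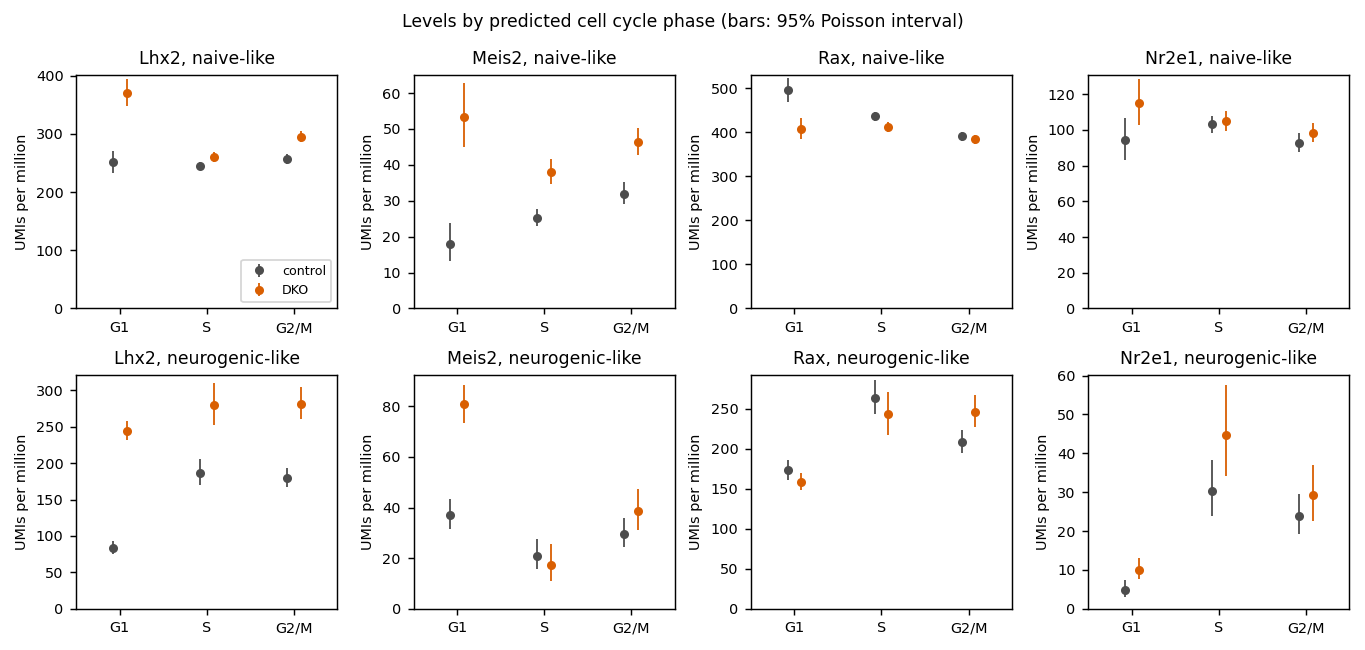
Levels of Lhx2, Meis2, Rax and Nr2e1 in CPM by predicted phase, control in grey and DKO in orange, with 95% Poisson intervals, in naive-like (top) and neurogenic-like progenitors (bottom). The gap between libraries for Lhx2 and Meis2 is widest in G1 cells.

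Because the DKO retina mixes cells with and without Six3, its cells were clustered alone, without the 7 genes and without Six3, and 28 subclusters were obtained. DKO cells of a class were called Six3-low where their subcluster held under 50% of the control level of Six3 for that class. By this rule 1370 of the 3341 naive-like cells were Six3-low, at 105 CPM of Six3 against 310 in the control and 321 in the other DKO cells. Six6 was low in both kinds, 35 and 52.9 CPM.

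In naive-like progenitors the Lhx2 ratio differed between these cells. Because α-Cre acts in the peripheral but not the central retina, a lower Six3 level cannot be told apart from retinal position in any class. As pools, Lhx2 stood at 250 CPM in the control, 250 in the other DKO cells (log2 ratio -0.0018, interval -0.06 to 0.05) and 340 in Six3-low cells (0.44, interval 0.39 to 0.50). Meis1 went from 151 and 146 to 119 CPM (log2 ratio -0.34 in Six3-low cells), Rax from 423 and 422 to 365 (-0.21), and Nr2e1 from 98.4 and 91.6 to 119 (0.27). Pax2 stood at 8.34 and 7.23 against 1.64 CPM in Six3-low cells (log2 ratio -2.35, interval -3.08 to -1.69). Pax6 was 494 and 492 CPM in Six3-low and other DKO cells. Meis2 was higher in both kinds as pools, with log2 ratios of 0.49 in the other DKO cells and 0.88 in Six3-low cells. The Six3-low cells lay mainly in a subcluster with 61.3% of its cells in G1 and one with 0.13%. The first held Six3 at 109, Lhx2 at 375 and Meis2 at 51 CPM, and the second 107, 324 and 50.9. The naive-like subclusters outside Six3-low had at most 12.2% of their cells in G1. The subclusters of naive-like cells outside Six3-low were not alike. Where Six3 stood at 322 and 529 CPM, Meis2 was 20.7 (interval 16.7 to 25.5) and 24.7 CPM (20.7 to 29.3), against 27.3 in the control. Where Six3 stood at 181 and 177 CPM, Meis2 was 65.4 (59.3 to 72.0) and 20.5 CPM (14.1 to 29.0). Lhx2 differed among these subclusters too, against 250 in the control. It was 233 (interval 219 to 248) and 279 CPM (265 to 294) where Six3 stood at 322 and 529 CPM. Where Six3 stood at 181 and 177 CPM, Lhx2 was 230 (218 to 242) and 273 CPM (248 to 301).

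In ganglion-like cells the DKO cells outside the Six3-low subclusters were not alike. These other DKO ganglion-like cells, 1984 of 2144, held 749 CPM of Six3 against 739 in the control, and their Lhx2 log2 ratio was 1.93 (interval 1.69 to 2.18) and their Meis2 ratio 1.77 (1.47 to 2.07). That Six3 level was a pool of unlike subclusters. The 3 ganglion-like subclusters with Six3 above the control level (953, 919 and 902 CPM) held Lhx2 at 14.9 (interval 11.2 to 19.4), 26.8 (21.2 to 33.4) and 31.7 CPM (22.7 to 43.0), against 18.7 (15.9 to 21.9) in the control. Those with Six3 at 446 and 634 CPM held Lhx2 at 154 and 95.3 CPM. Meis2 was 19.0, 36.7 and 23.9 CPM in the first 3 and 94.1 and 36.2 in the other two, against 13.3 in the control. In the 160 Six3-low cells the ratios were 3.67 and 3.15, with Lhx2 at 238 and Meis2 at 118 CPM, and Pax6 was lower (442 against 656, log2 ratio -0.57). Of these 160 cells, 109 (68.1%) lay in the subcluster made mainly of ectopic neuron-like cells and 42 (26.2%) in one of low UMI counts, so that a lower Six3 level cannot be told apart from another kind of cell there. In neurogenic-like progenitors the other DKO cells, 1682 of 1749, gave log2 ratios of 0.84 for Lhx2 and 0.97 for Meis2. The 67 Six3-low cells gave 1.43 and 1.34, and 56 of them lay in a subcluster made mainly of naive-like cells. The subclusters made mainly of neurogenic-like cells held Six3 at 236 and 302 CPM, with 91.7% and 0% of their cells in G1. Lhx2 was 270 and 281 CPM in them, against 142 in the control. Meis2 was 79.9 (interval 72.3 to 88.2) and 34.9 CPM (28.6 to 42.2), against 30.7 in the control.

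**Figure D4:**
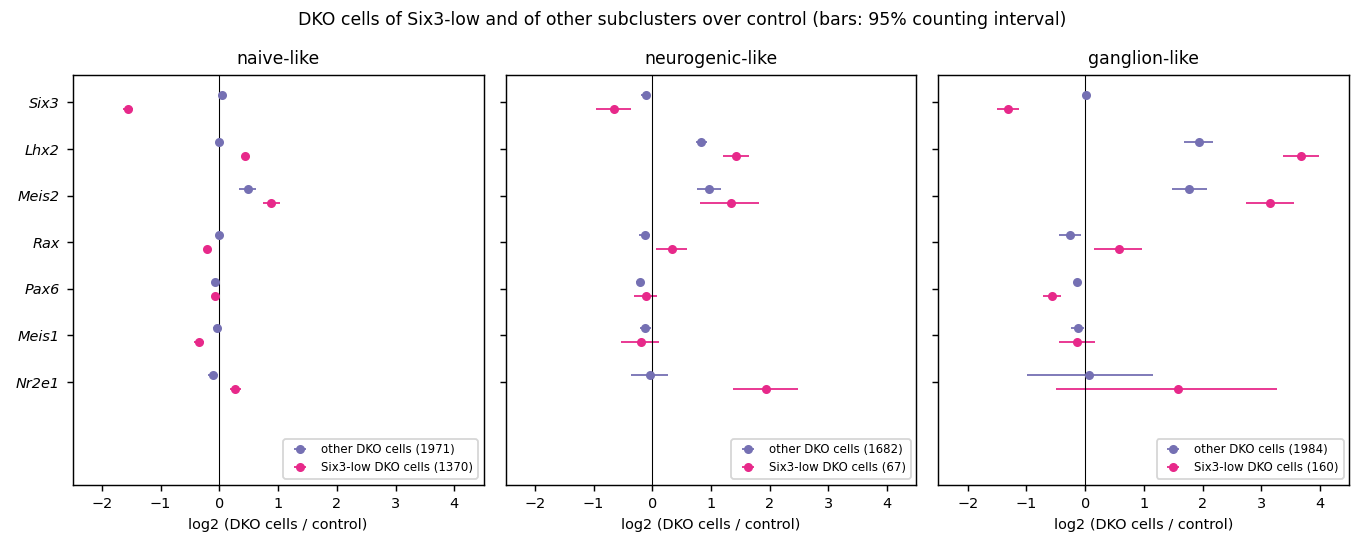
Log2 ratio over the control for DKO cells of Six3-low subclusters (pink) and of the other subclusters (purple) in 3 classes, with 95% counting intervals and cell numbers in the legend. In naive-like cells Lhx2 lies on 0 for the other DKO cells as a pool and above 0 for Six3-low cells, while in ganglion-like and neurogenic-like cells both kinds lie above 0 for Lhx2 and Meis2.

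Across the 21 retinal subclusters of at least 50 DKO cells, Six3 ranged from 87.4 to 953 CPM and Lhx2 from 14.9 to 413. Pearson's r between log2 values (10 added) was -0.78 for Lhx2, -0.63 for Rax, -0.61 for Nr2e1, 0.51 for Pax6, -0.11 for Meis2 and 0.04 for Meis1. These points share 1 library and differ in cell type, and the 3 subclusters lowest in Lhx2 were all ganglion-like, with Six3 at 902 CPM or more. Over the 6 subclusters made mostly of naive-like cells, r was -0.56 for Lhx2, -0.64 for Meis2 and 0.60 for Rax, as a description of few points.

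**Figure D5:**
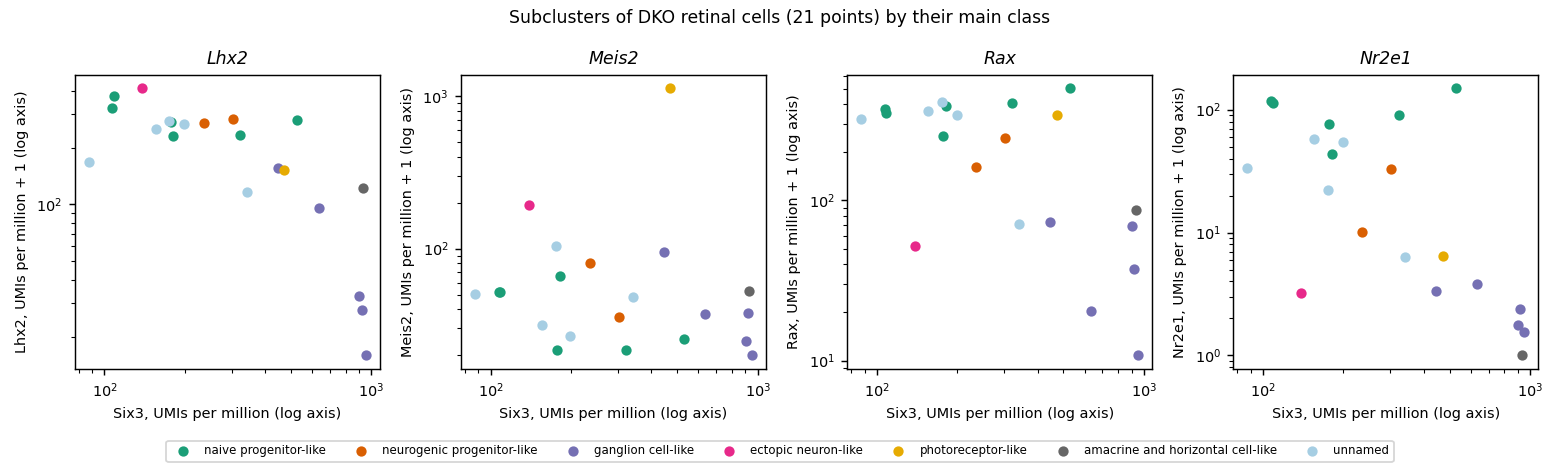
Level of Six3 against the levels of Lhx2, Meis2, Rax and Nr2e1 (CPM, log axes, 1 added on the vertical axes) in 21 subclusters of DKO retinal cells coloured by their main class. Ganglion-like subclusters run from 446 CPM of Six3 with 154 of Lhx2 to 953 CPM of Six3 with 14.9 of Lhx2, the ectopic neuron-like subcluster combines high Lhx2 with low Rax and Nr2e1, and the photoreceptor-like subcluster stands out for Meis2.

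Pax2 was carried by few cells. Of 8112 control retinal cells, 48 held 3 or more Pax2 UMIs, and these held 67.9% of the retinal Pax2 UMIs. Of 10746 DKO retinal cells 28 did, with 60.2%. Since these cells were chosen for Pax2, their Pax2 level is no finding. Pax6 and Meis1 were lower in them in both libraries. Pax6 was 195 CPM in the control Pax2 cells against 534 in the other control retinal cells, and 93.5 against 501 in the DKO library. Meis1 was 56.7 against 158 and 46.7 against 144. Rax and Lhx2 stood at 421 and 280 CPM in the control Pax2 cells against 321 and 194 in the others. In the DKO library they stood at 257 against 269 and at 222 against 237 CPM, with overlapping intervals. The progenitor and glial factor Sox9 was 315 against 53.7 CPM in the control and 366 against 64.5 in the DKO library. Six3 in the DKO Pax2 cells was 596 CPM (interval 505 to 698), above the 334 of the other DKO retinal cells. Of the genes that led these cells, both named after their values were seen, Bmp2 (106 against 4.18 CPM over both libraries) encodes a secreted growth factor and Hes1 (454 against 84) a target of Notch signalling.

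Of the 25 other eye and progenitor factors, 10 passed the filter in naive-like progenitors. Nr2f2, an orphan nuclear receptor, was higher (75 against 177 CPM, log2 ratio 1.24), and Six6 and Foxd1, a factor of the temporal retina (66.2 against 43.1, -0.62), were lower by 1.5-fold or more. In neurogenic-like progenitors Nr2f2 was higher (log2 ratio 1.02), and Six6, Vax2, a ventral retinal factor (73.9 against 42.6, -0.80), and the Notch target Hes5 (495 against 277, -0.84) were lower. In ganglion-like cells 7 passed and only Six6 was beyond 1.5-fold. In cluster 3 Otx1, Mitf (30 against 103, log2 ratio 1.78) and Nr2f2 were higher and Six3 and Six6 lower. Otx1 and Mitf also served to name the clusters. Foxd1, Vax2 and Mitf each reached 50 CPM only in the library in which they stood higher. In amacrine and horizontal-like and in photoreceptor-like cells, Six3 was higher (592 against 932 and 230 against 476 CPM) and Six6 lower. The median log2 ratio of the factors that passed was -0.26 in naive-like, -0.19 in neurogenic-like and -0.03 in ganglion-like cells.

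The 13 partners and cofactors were counted in the same way. They included the PBX and PREP proteins that pair with MEIS factors, and Atn1 and Kdm1a. The others were the LDB and LMO proteins that bind LIM factors or compete with them. None of the 5 that passed the filter in naive-like, the 6 in neurogenic-like progenitors or the 5 in cluster 3 lay beyond 1.5-fold, and 1 of 7 in ganglion-like and 1 of 6 in amacrine and horizontal-like cells did, Lmo1 in both. Ldb1, the cofactor that LIM homeodomain proteins such as Lhx2 need and named here after its values were seen, was 72 and 63.9 CPM in naive-like and 72.3 and 73.1 in ganglion-like cells. Lmo1, which competes for the same cofactor, was lower in ganglion-like cells (180 against 77.2 CPM, log2 ratio -1.22, interval -1.33 to -1.11) and in amacrine and horizontal-like cells (272 against 127, log2 ratio -1.09). In naive-like progenitors, where it was under the filter, Lmo1 stood at 4.48 and 25.6 CPM.

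Over 25 sums of 1 retinal cluster in 1 library, the genes whose log2 levels were most like those of each member were sought among 5884 genes. Rax was closest to Pabpc1, Ptpn2 and Hmgn3 (Pearson's r 0.95 for each), and Nr2e1 to Cdk6 (0.95), Tcf7l1 (0.94) and Cdca7l (0.94). Pax6 was closest to Hmx1 (0.83), Pde4d (0.82) and Plekha1 (0.75). Lhx2 was closest to 2310009B15Rik (0.90), Khdrbs3 (0.86) and Myb (0.82), Meis1 to Ddr1 (0.93), Pde7a (0.92) and Prrc2c (0.91), Meis2 to Slc17a7, Serinc5 and Fam53b (0.87 each), and Pax2 to Lor (0.88), Trip6 and Cnn2 (0.86 each). Among the members, the highest r was that of Rax and Nr2e1 (0.78) and the lowest that of Pax6 and Lhx2 (-0.46). These sums share libraries and cell types, and the correlations are descriptions.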

How the data were processed

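Single cells of E13.5 eyecups were profiled with 3′ chemistry, 1 library per genotype. The authors deposited filtered matrices of UMI counts per gene and cell, aligned to mm10 with Cell Ranger 3.1.0, and the counts were not normalized.

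Barcodes stayed in if they had above 200 but below 6000 detected genes and if mitochondrial transcripts made up less than 20%. Each cell got a doublet score from Scrublet (scanpy 1.11.5). The automatic cutoff of the tool called 0 cells in the control library, so the threshold found for the DKO library (0.225) was used for both, a choice made after seeing the data, and called 300 control and 329 DKO cells. They were kept in the classes, and clusters with over 20% doublets stayed unnamed. Clusters were made with Seurat 5.3.0 (20 dimensions, 2000 features, resolution 0.5) after 106 genes had been left out. These were the 7 members, the gene lists, genes named by the study and the hemoglobin genes. A class name needed 75% of its markers and at least 3. This naming rule, with its limits for doublets, low UMI counts and ties (0.5 on the log2 scale), was set after the data were seen. Otx1, Otx2, Mitf, Sox9, Hes1, Lhx9 and Vax1 stood both among the eye factors and among the cluster markers. The members and lists were chosen with earlier results of these data known. Named genes were the 7 members, Six3 and Six6, the listed factors and partners beyond 1.5-fold, and for each member the 3 genes of highest Pearson correlation of log2(CPM + 10), among genes with at least 50 CPM in 1 sum or more. Counting and statistics were done in Python 3.11.15 with numpy 2.4.6, scipy 1.17.1 and pandas 2.3.3, and clustering in R 4.3.3. The scripts were tested on simulated counts. With 1 library per genotype no model was fitted across genes.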

Additional observations from a re-analysis of the deposited data

Results flagged for a closer look

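Rax and Pax6 differed in direction between cell groups. The log2 ratio of DKO over control for Rax was 0.16 in cluster 3, against -0.087 in naive-like progenitors, -0.10 in neurogenic-like progenitors and -0.20 in ganglion-like cells. For Pax6 it was 0.16 in cluster 3, against -0.081 in naive-like progenitors, -0.20 in neurogenic-like progenitors, -0.16 in ganglion-like cells and -0.41 in photoreceptor-like cells. All of these counting intervals excluded 0, with 1 library on each side, and the differences between the cell groups were not tested. Within the neurogenic-like class, the Rax ratio was -0.19 in cluster 2 and 0.18 in cluster 9.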

How the results depend on the processing

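No paired analysis was possible because there was only 1 control and 1 DKO library. Up to 14 alternatives were computed for each result, and naming every cluster by its best class was chosen after seeing the data. Lhx2 and Meis2 stayed higher in the DKO library in every alternative that gave a value (14 in both progenitor classes, 13 in ganglion-like cells). The log2 ratio of Lhx2 ranged from 0.13 to 0.44 in naive-like, 0.64 to 1.43 in neurogenic-like and 0.67 to 3.67 in ganglion-like cells, and that of Meis2 from 0.20 to 0.90, 0.29 to 1.34 and 0.43 to 3.15.

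In naive-like cells the median over the 7 genes moved from -0.081 to -0.020 at resolution 0.3, -0.0017 without integration, -0.13 with mitochondrial, ribosomal protein and hemoglobin genes left out of the total, -0.043 after thinning to 2000 UMIs and -0.047 on the scale of Seurat. The count past 1.5-fold there went from 2 to 1 at resolution 0.3, at resolution 1, after thinning and for the mean over phases, and to 0 without integration and on the scale of Seurat. In neurogenic-like cells the median turned from -0.10 to 0.84 in Six3-low cells and 0.20 for the mean over phases, and was -0.0042 for the mean over clusters, while the count went from 3 to 1 on the scale of Seurat. In ganglion-like cells the median of 0.15, the ratio of Pax2, ranged from -0.22 to 1.07, and 8 of 14 alternatives kept its sign. The count in ganglion-like cells went from 2 to 1 on the scale of Seurat and to 0 for the mean over phases. In that mean, S and G2/M held 2 control cells each. Rax turned to 0.34 and 0.57 in Six3-low neurogenic-like and ganglion-like cells, and Pax6 to 0.58 in ganglion-like cells for the mean over phases. The scale of Seurat adds 1 before the log and so shrinks low genes by construction. The cause of the other changes was not tested.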
